A study of Mus musculus with 72 samples.

Results

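The genes described here are 39 that mark macrophages and monocytes, followed in the colon of 72 mice. These genes were chosen by name for what is known of them, but with earlier results of these data known. They comprise lineage genes, integrins and monocyte genes, scavenger and lectin receptors, genes of resident and perivascular macrophages, lysosomal and lipid genes, and inhibitory receptors. Each gene was read from its brightest probe set assigned to 1 symbol, a probe set being the group of array probes for 1 transcript. On this basis 37 of the 39 genes were found among the 18193 genes of the array, and 34 were bright enough to be tested among 12534 tested genes. Cd5l, Timd4 and Trem2 were too dim, and Ly6c1 and Lilrb4a shared their probe sets with Ly6c2 and Lilr4b.

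All mice were wild type and labelled Balb/c, and 64 of them received rectal TNBS (trinitrobenzene sulfonic acid), a hapten that provokes acute colitis, at 70 µg per g body weight. Mice of the combination group (n = 15) had been injected before TNBS with TNFR-Ig at 0.3 mg/kg, a soluble receptor fusion that binds the cytokine TNF, and with mP2D10, an antibody against the TNF family cytokine TWEAK, at 10 mg/kg. Anti-TWEAK mice (n = 14) received mP2D10 alone at 10 mg/kg, and TNFR-Ig mice (n = 12) received TNFR-Ig alone at 0.3 mg/kg, a dose that the study's design text describes as less effective than a higher one. Control antibody mice (n = 15) received an IgG2a against human CD20 at 10 mg/kg. Untreated TNBS mice (n = 8) received no agent, and naive mice (n = 8) received neither TNBS nor an agent by their titles. TNFR-Ig mice received no antibody, so their comparisons with control antibody mice and with combination mice also differ in receiving an antibody. Colon was taken on day 4 in 2 experiments, labelled 7 (34 arrays) and 10 (38 arrays), and naive mice were in experiment 10 alone. By their array labels, combination replicates 7 and 8 of experiment 7 were run with the arrays of experiment 10. Age and sex are not given in the sources used here.

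Macrophages of the gut wall are long-lived residents or descendants of blood monocytes that mature in the tissue, and they depend on the receptor encoded by Csf1r and on the transcription factor PU.1, encoded by Spi1. In the healthy colon they engulf dying cells and bacteria without driving inflammation. In colitis, monocytes enter in large numbers and carry an inflammatory programme. Scavenger receptors and cathepsins serve uptake and digestion, and resident cells near vessels carry receptors such as Lyve1, Folr2 and Mertk.

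The values are log2 levels from whole pieces of rolled colon, with a floor of 2.08, and array medians lay between 4.60 and 4.77. In whole tissue, fewer macrophages and less RNA per macrophage cannot be told apart. The mean of 11 colon epithelium markers lay between 13.89 and 14.32 on every array, while the mean of 7 exocrine pancreas markers ran between 3.28 and 13.21. The first naive array carries a contradictory treatment label and was kept as naive. Changes below are fitted log2 differences with their standard error (SE) that allow for the experiment. A gene is said to have risen or fallen where its limma p, adjusted over all 12534 genes, was under 0.05. Where 3 levels are given for a group, they are its lowest, median and highest mouse.

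**Figure D1:**
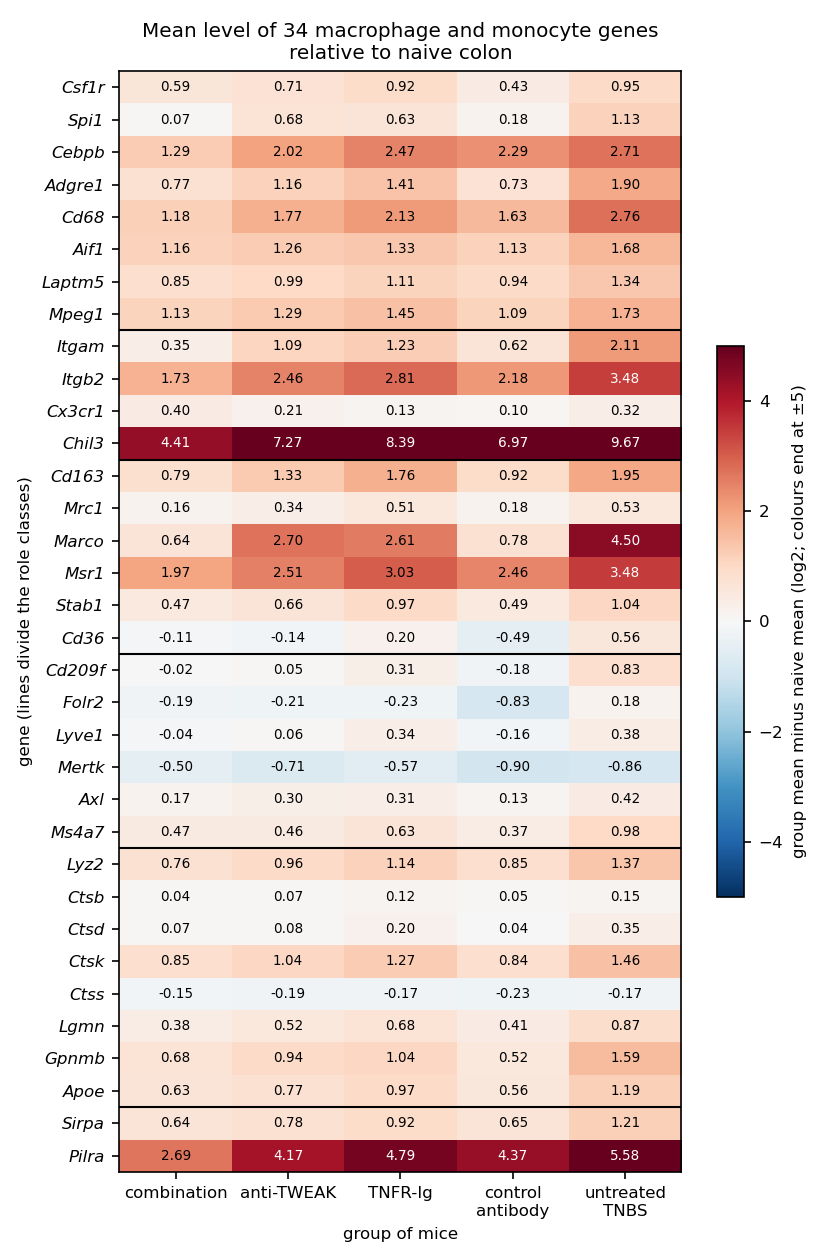
Mean log2 level of each of the 34 tested genes in 5 groups of colitic mice minus its mean in naive mice, by group (columns) and gene (rows, with lines between the role classes). Chil3 was 4.41 above naive in combination mice and 9.67 above in untreated TNBS mice, and Mertk lay below naive in all 5 groups.

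Set against naive mice, untreated TNBS mice show how these genes stood in colitis. Of the 34 tested genes, 29 rose and 2 fell, against 22.2% of all tested genes called higher and 25.6% called lower. Their median change was 1.29, and that of all tested genes was -0.01. The 8 untreated and 8 naive mice did not overlap for 18 of the genes that rose and for both that fell, a separation seen for 15.9% of all tested genes. Neutrophil markers moved with them: 9 of 9 tested markers rose, and their mean level lay between 8.38 and 11.57 in untreated mice and between 2.51 and 4.14 in naive mice. Of the defining neutrophil genes, Mpo and Elane were at the floor on all 72 arrays. Of other cell markers, 9 of 12 endothelial and 6 of 10 fibroblast markers rose, while 8 of 11 colon epithelium and 8 of 8 smooth muscle markers fell. The epithelium mean ran from 13.92 to 14.10 in untreated mice and from 14.27 to 14.32 in naive mice, without overlap. The part of these cells in the changes of the macrophage genes, such as Itgam and Itgb2 that neutrophils share, was not tested. Over colitic mice Pilra, Itgb2 and Chil3 had the highest correlations with the neutrophil markers, given below.

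Among the monocyte and integrin genes, Chil3, a secreted chitinase-like lectin, showed the largest change. Its levels were 10.48, 12.51 and 13.43 in untreated TNBS mice, against 2.08, 2.50 and 2.72 in naive mice. The groups lay far apart, and 2 of the 8 naive arrays were at the floor, which limits what the fitted change of 9.02 ± 1.15 (SE, adjusted p = 1.91e-09) can show. Itgb2, the shared beta chain of leukocyte integrins, was at 7.45, 9.52 and 10.20 in untreated mice, against 5.22, 5.71 and 6.30 in naive mice. It rose by 3.50 ± 0.39 (adjusted p = 5.57e-11). Itgam, the CD11b chain that pairs with it, rose by 1.94 ± 0.37, with 5 of 8 naive arrays at the floor. Cx3cr1, the fractalkine receptor of monocytes and mature gut macrophages, rose by 0.69 ± 0.17, and its groups overlapped.

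All 8 lineage genes rose. Cd68, a glycoprotein of macrophage endosomes, was at 8.02, 9.83 and 10.22 in untreated mice, against 6.15, 6.81 and 7.72 in naive mice, and rose by 2.74 ± 0.34. Cebpb, a transcription factor of myeloid activation, rose by 2.64 ± 0.28. Adgre1, an adhesion receptor widely used to mark mouse macrophages, was at 8.84, 10.10 and 10.77 in untreated mice, against 7.69, 8.09 and 8.46 in naive mice, and rose by 2.15 ± 0.27. Aif1 (a calcium-binding actin regulator) rose by 1.89 ± 0.17, Mpeg1 (the pore-forming perforin-2) by 1.79 ± 0.16 and Laptm5 (a lysosomal membrane protein of blood cells) by 1.42 ± 0.13. The CSF1 receptor gene Csf1r and the PU.1 gene Spi1 showed smaller rises of 1.07 ± 0.16 and 1.11 ± 0.24.

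Of 6 tested scavenger and lectin receptor genes 5 rose. Marco, a collagen-like scavenger receptor for bacteria, stood at 2.20, 7.88 and 9.35 in untreated mice, and each of the 8 naive arrays had it at the floor. Its change of 4.15 ± 1.09 (adjusted p = 0.00131) therefore rests on the floor, and 2 of 8 untreated mice stood near it as well. Msr1, the class A scavenger receptor, rose by 3.45 ± 0.33 and the haemoglobin receptor gene Cd163 by 1.77 ± 0.36. The stabilin-1 gene Stab1 rose by 1.19 ± 0.17 and the mannose receptor gene Mrc1 by 0.63 ± 0.13. Cd36, a fatty acid and lipoprotein receptor that fat and endothelial cells also carry, did not pass at 0.51 (adjusted p = 0.229).

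The resident and perivascular genes moved least and not in one direction. Mertk, the receptor kinase with which macrophages recognise dying cells, was at 9.73, 10.02 and 10.22 in untreated mice, against 10.55, 10.88 and 11.28 in naive mice. It fell by 0.84 on the log2 scale (SE 0.12, adjusted p = 6.35e-08), with no overlap. Its relative Axl rose by 0.40 ± 0.11. The membrane protein gene Ms4a7 rose by 1.13 ± 0.12 and the lectin gene Cd209f by 1.29 ± 0.37. The folate receptor gene Folr2 at 0.58 and the hyaluronan receptor gene Lyve1 at 0.35, which lymphatic endothelium also expresses, did not pass. Timd4, a phosphatidylserine receptor of long-lived resident macrophages, was above the floor on 5 of 8 naive arrays, and its highest level in untreated mice was 2.11.

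Among the lysosomal and lipid genes, 7 of 8 rose and Ctss fell. Lyz2, the lysozyme of myeloid cells, rose by 1.40 ± 0.14, the collagen-cleaving cathepsin gene Ctsk by 1.40 ± 0.30, the lysosomal glycoprotein gene Gpnmb by 1.45 ± 0.38 and the apolipoprotein E gene Apoe by 1.30 ± 0.20. Lgmn, the asparaginyl protease legumain, rose by 0.85 ± 0.15. The broadly expressed cathepsin genes Ctsd and Ctsb rose by 0.38 ± 0.08 and 0.17 ± 0.03. Ctss, cathepsin S of antigen-presenting cells, fell by 0.15 on the log2 scale (SE 0.03) without overlap, at levels of 14.11 to 14.25 in untreated mice and 14.26 to 14.44 in naive mice, near the top of the table's range of 15.98. Of the inhibitory receptor genes, Pilra rose by 5.62 ± 0.63 and Sirpa, the receptor for the CD47 signal, by 1.22 ± 0.15. The probe set shared by Lilrb4a and Lilr4b averaged 12.49 ± 0.89 in untreated mice and 8.70 ± 0.21 in naive mice (SD), and that of Ly6c1 and Ly6c2 averaged 11.61 ± 0.20 and 10.59 ± 0.13.

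Genes that recruit, sustain or equip monocytes and macrophages, a further list of 38 of which 30 were tested, moved in the same comparison. Of these 21 rose and 2 fell. The monocyte chemokine genes Ccl7 and Ccl2 rose by 4.74 ± 0.72 and 4.56 ± 0.67, the haem-degrading enzyme gene Hmox1 by 4.19 ± 0.41, the high-affinity IgG receptor gene Fcgr1 by 4.20 ± 0.35, the matrix glycoprotein gene Emilin2 by 4.41 ± 0.59 and the cytokine receptor gene Csf2rb by 3.28 ± 0.38.

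**Figure D2:**
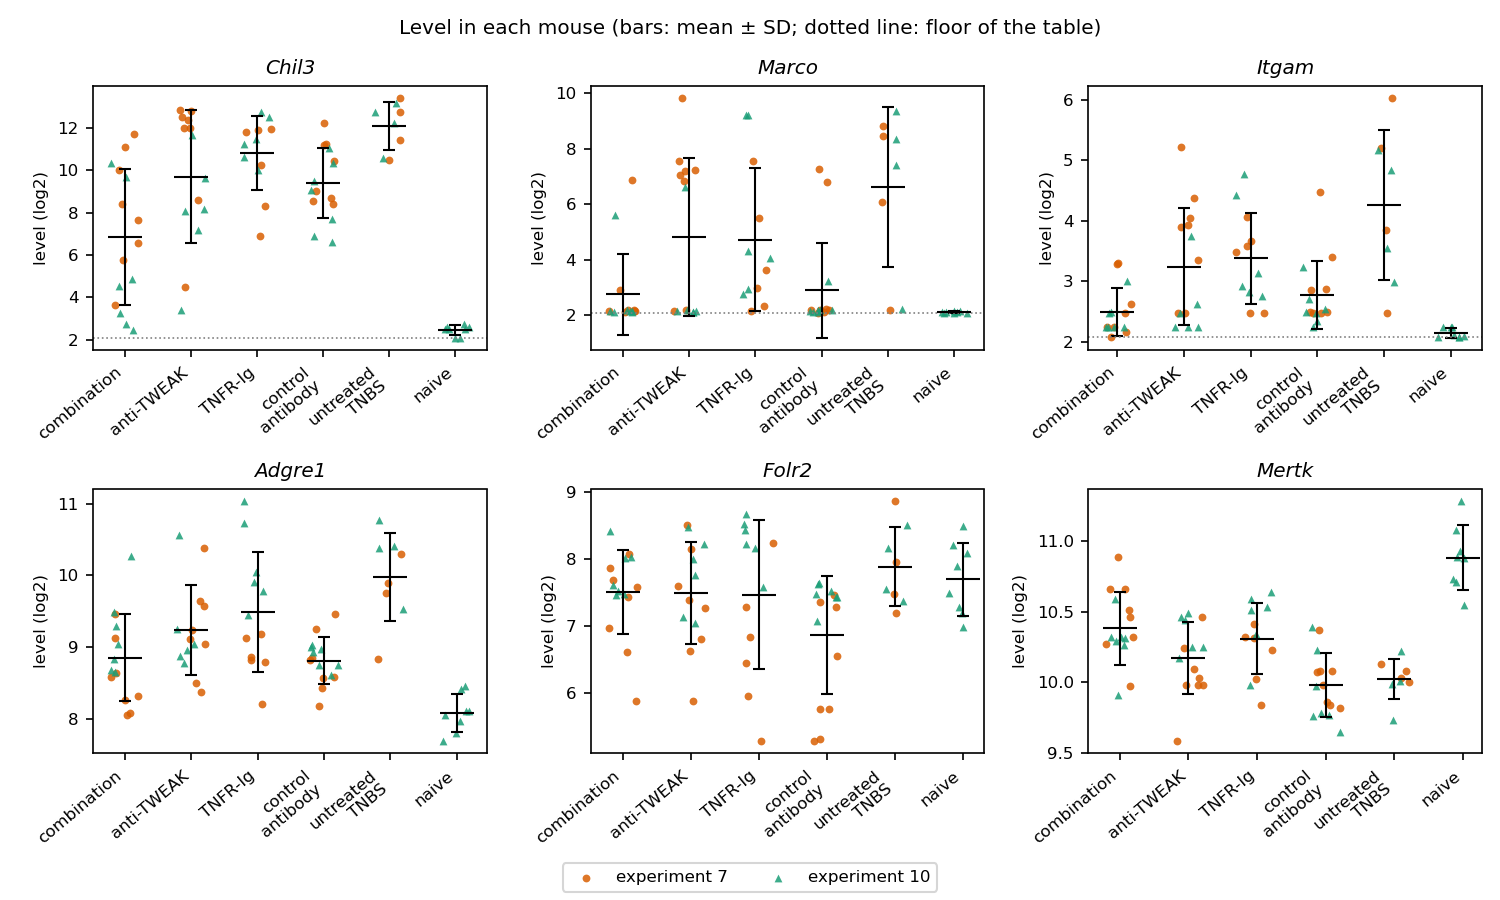
Log2 level in each mouse for 6 genes, by group, with circles for experiment 7, triangles for experiment 10 and bars for mean ± SD. Marco was near the floor in most combination and control antibody mice and had its highest mean in untreated TNBS mice, and Mertk had its highest mean in naive mice.

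The control antibody mice, set against untreated TNBS mice, show what the injected control IgG2a went with. Of the 34 tested genes 27 fell and 0 rose, against 5.52% of all tested genes called lower and 4.82% called higher. The fitted change was below 0 for all 34, with a median of -0.61, against 0.03 for all tested genes. No gene separated the 15 control antibody mice from the 8 untreated mice, as was the case for all but 0.0239% of tested genes. The untreated mice are the same as in the comparison with naive mice.

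Marco fell the most. It was at 2.08, 2.20 and 7.27 in control antibody mice, against 2.20, 7.88 and 9.35 in untreated mice, and 5 of 15 control antibody arrays were at the floor. The change was -3.75 ± 0.93 (adjusted p = 0.00737). Itgam was at 2.25, 2.50 and 4.47 in control antibody mice, against 2.48, 4.34 and 6.03 in untreated mice, and changed by -1.50 ± 0.31. Adgre1 was at 8.18, 8.82 and 9.46 in control antibody mice, against 8.84, 10.10 and 10.77 in untreated mice. It changed by -1.15 ± 0.23 (adjusted p = 0.00164), and 8 of 15 control antibody mice lay below the lowest untreated mouse. Cd68, Itgb2, Cd163, Msr1, Cd36 and Gpnmb fell by 1.03 to 1.30 on the log2 scale.

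The other classes took part. Of 8 lineage genes 7 fell, Spi1 by 0.95 (SE 0.21) and Csf1r by 0.52 (SE 0.13) on the log2 scale. Of the 6 tested resident genes 5 fell, Folr2 and Cd209f by 0.99 each and Ms4a7 by 0.60 (SE 0.11), the smallest adjusted p of the 34 genes at 5.36e-04. The abundant lysosomal genes Ctsb and Ctsd fell by 0.10 and 0.31. The genes that did not pass were Cebpb, Cx3cr1, Chil3, Mertk, Ctsk, Ctss and Pilra. Chil3 had a change of -2.75 ± 0.97 (adjusted p = 0.0558) and Mertk one of -0.04 ± 0.10.

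Of the 30 tested further macrophage genes 12 fell and 1 rose under the control antibody, among them Emilin2 (-1.47 ± 0.50), Pla2g7, a phospholipase of macrophages (-1.31 ± 0.38), Hmox1 (-1.17 ± 0.35), Fcgr1 (-0.93 ± 0.30) and the adaptor genes of activating receptors Fcer1g (-0.89 ± 0.24) and Tyrobp (-0.82 ± 0.22). Markers of other cells moved beside them: 3 of 9 neutrophil markers fell, with a mean between 6.14 and 11.05 in control antibody mice and between 8.38 and 11.57 in untreated mice, 5 of 12 endothelial markers fell and 6 of 10 fibroblast markers fell. Their part in the fall of the macrophage genes was not tested.

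The median change was of like size in both experiments. In experiment 7 alone, with 8 control antibody and 4 untreated mice, the median change of the 34 genes was -0.62, all 34 changes were below 0 and 0 passed, as for nearly all tested genes (0.0479% called lower). In experiment 10 alone, with 7 and 4 mice, the median was -0.58 and 20 genes fell, against 5.11% of all tested genes. Of the 27 genes that fell in both experiments together, 18 were also called in experiment 10 alone and 15 had the larger change in experiment 7. The difference between the experiments passed for 0 of the 34 genes by limma and for 0.016% of all tested genes, and at an unadjusted p under 0.05 for 1 of the 34 and 13.2% of all tested genes. Leaving out 1 untreated mouse of experiment 10, its replicate 5, left 17 genes called.

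PU.1 binds purine-rich DNA with the core GAGGAA, and the promoters of 3 genes that fell under the control antibody are shown with that of Mertk, which did not pass. They are the largest called falls with an entry in the promoter table, each 300 bases by RefSeq on build GRCm38.p6, with GAGGAA or its reverse complement TTCCTC in capitals. Marco is at chr1:120504975-120505274 on the minus strand, Itgam at chr7:128062390-128062689 on the plus strand, Cd68 at chr11:69666121-69666420 on the minus strand and Mertk at chr2:128698665-128698964 on the plus strand.
Marco: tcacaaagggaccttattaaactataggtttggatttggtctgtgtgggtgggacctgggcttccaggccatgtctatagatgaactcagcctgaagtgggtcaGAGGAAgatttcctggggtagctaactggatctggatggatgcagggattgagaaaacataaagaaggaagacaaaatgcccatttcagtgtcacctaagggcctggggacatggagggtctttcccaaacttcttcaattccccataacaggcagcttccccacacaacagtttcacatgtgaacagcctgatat
Itgam: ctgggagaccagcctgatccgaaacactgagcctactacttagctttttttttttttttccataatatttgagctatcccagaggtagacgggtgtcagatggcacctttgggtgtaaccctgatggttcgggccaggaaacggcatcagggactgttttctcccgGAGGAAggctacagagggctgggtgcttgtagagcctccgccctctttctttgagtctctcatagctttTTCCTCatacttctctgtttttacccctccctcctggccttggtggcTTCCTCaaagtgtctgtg
Cd68: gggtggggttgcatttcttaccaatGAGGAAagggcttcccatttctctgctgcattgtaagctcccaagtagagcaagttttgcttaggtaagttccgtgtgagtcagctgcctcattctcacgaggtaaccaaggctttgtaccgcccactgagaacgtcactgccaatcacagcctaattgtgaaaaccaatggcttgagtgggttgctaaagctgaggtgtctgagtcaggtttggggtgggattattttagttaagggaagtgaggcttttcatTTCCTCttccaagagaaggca
Mertk: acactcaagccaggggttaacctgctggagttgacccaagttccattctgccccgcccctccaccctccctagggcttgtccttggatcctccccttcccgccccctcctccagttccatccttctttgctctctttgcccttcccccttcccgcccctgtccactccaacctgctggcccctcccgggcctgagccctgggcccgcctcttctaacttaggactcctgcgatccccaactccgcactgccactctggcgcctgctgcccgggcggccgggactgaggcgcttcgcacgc
The window of Itgam held 3 such cores, that of Cd68 2, that of Marco 1 and that of Mertk 0. Mertk was chosen by name, and the windows shown do not stand for the other genes. Of the others that did not pass, Ctsk and Ctss had 2 cores each and Pilra 1, while Cebpb, Cx3cr1 and Chil3 had 0. Among genes that fell, Mrc1 had 3 and Aif1 1, while Cd163, Cd36, Gpnmb and Ctsd had 0. Over both strands the core was in 18 of 36 promoter entries (50.0%) of 30 matched members, against 28.3% of 32851 promoters of the table. A motif of the transcription factor NF-kB was searched in the same way. It was in 1 of 36 entries (2.8%), against 4.5% of all promoters. A match is a run of letters and not a measured binding site.

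**Figure D3:**
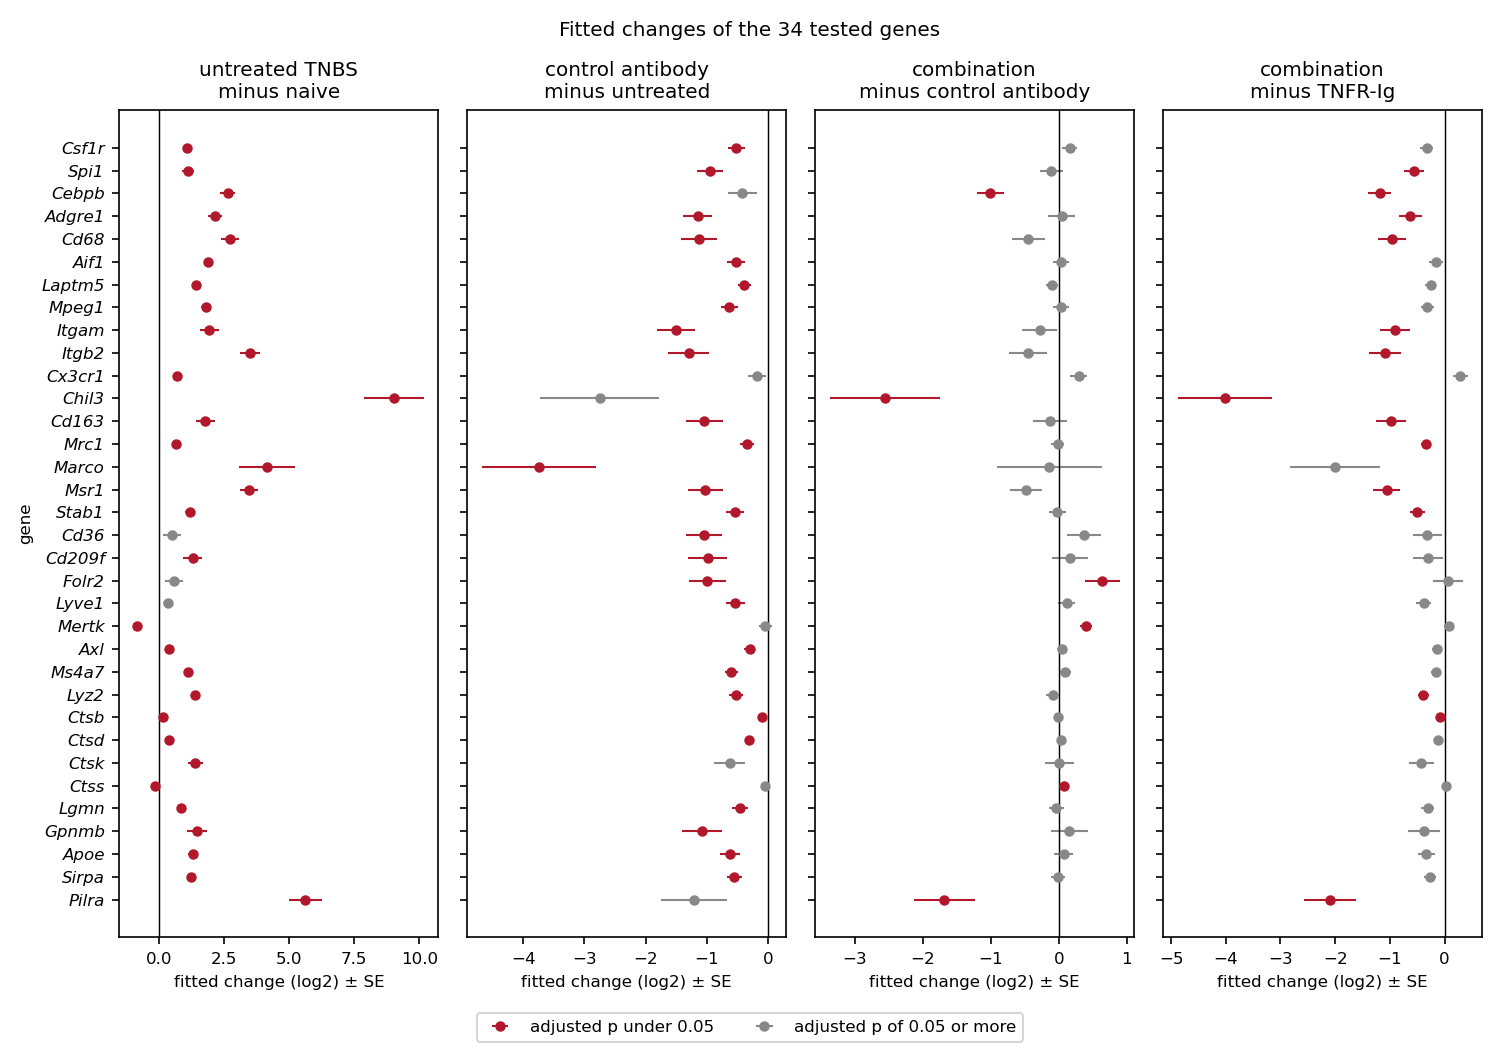
Fitted log2 change ± SE of each tested gene in 4 comparisons, with genes at an adjusted p under 0.05 in red and the others in grey. Under the control antibody every change lies below 0. Under the combination against the control antibody 3 genes rose and 3 fell, against 14.2% and 17.0% of all tested genes.

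TNFR-Ig mice were compared with control antibody mice and with untreated mice, since they received no antibody. Against control antibody mice 6 of the 34 genes rose and 0 fell, with 2.35% of all tested genes called higher and 1.73% called lower. All 34 fitted changes were above 0, with a median of 0.42, against 0.00 for all tested genes. Against untreated mice 0 of 34 passed by limma, with 3.01% of all tested genes called, and the median was -0.26. At an unadjusted p under 0.05 there were 10 of the 34 (29.4%), against 17.7% of all tested genes. The control antibody mice are those of the preceding comparison, where they were low, so these rises are not independent of it.

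The 6 genes that rose over the control antibody were lineage, scavenger receptor and resident genes. Csf1r was at 10.94, 11.67 and 12.21 in TNFR-Ig mice, against 10.77, 11.10 and 11.49 in control antibody mice, and rose by 0.49 ± 0.12 (adjusted p = 0.0118). Adgre1 was at 8.21, 9.31 and 11.03 in TNFR-Ig mice, against 8.18, 8.82 and 9.46 in control antibody mice, and rose by 0.67 ± 0.21. In it 5 of 12 TNFR-Ig mice lay above the highest control antibody mouse. Mertk rose by 0.33 ± 0.09, Lyve1 by 0.50 ± 0.14, Stab1 by 0.47 ± 0.13 and Mrc1 by 0.33 ± 0.10. Of the 30 further genes 4 rose, the complement genes C1qc (0.46 ± 0.14) and C1qb (0.35 ± 0.10), the oxysterol receptor gene Nr1h3 (0.35 ± 0.10) and the cytokine receptor gene Csf2ra (0.34 ± 0.10). Of 9 neutrophil markers 0 passed, with a median change of 0.61 and 8 of 9 above 0, and 2 of 12 endothelial markers rose. Their part in these rises was not tested.

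The count rests on experiment 10 and on single mice. In experiment 7, with 6 TNFR-Ig and 8 control antibody mice, 0 of 34 genes passed, as for all tested genes (0.0% called higher), and the median change was 0.18. In experiment 10, with 6 and 7 mice, 22 rose and the median was 0.61, against 8.36% of all tested genes. The mean over the 34 genes was 9.03 ± 0.30 in TNFR-Ig mice of experiment 7 and 9.64 ± 0.33 in those of experiment 10, while control antibody mice averaged 8.86 ± 0.35 and 8.89 ± 0.24 (SD). The difference between experiments passed for 0 of 34 genes by limma, as for all 12534 genes, and 5 of the 34 (14.7%) had an unadjusted p under 0.05, against 10.4% of all tested genes. Adgre1 had the smallest p of the 34 genes, at a difference of 1.23 ± 0.38 (adjusted p = 0.292), and those of Chil3 (2.50), Marco (2.45), Pilra (1.52) and Gpnmb (1.40) were larger. Leaving out TNFR-Ig replicates 1, 4 and 8 of experiment 10 in turn left 2, 3 and 1 genes called, leaving out replicates 1 and 5 of experiment 7 gave 3 and 12, and leaving out control antibody replicate 5 of experiment 10 gave 2. Against untreated mice, leaving out untreated replicate 5 of experiment 7 gave 3 genes, and leaving out TNFR-Ig replicate 8 of experiment 10 or combination replicate 5 of experiment 7 gave 1.

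**Figure D4:**
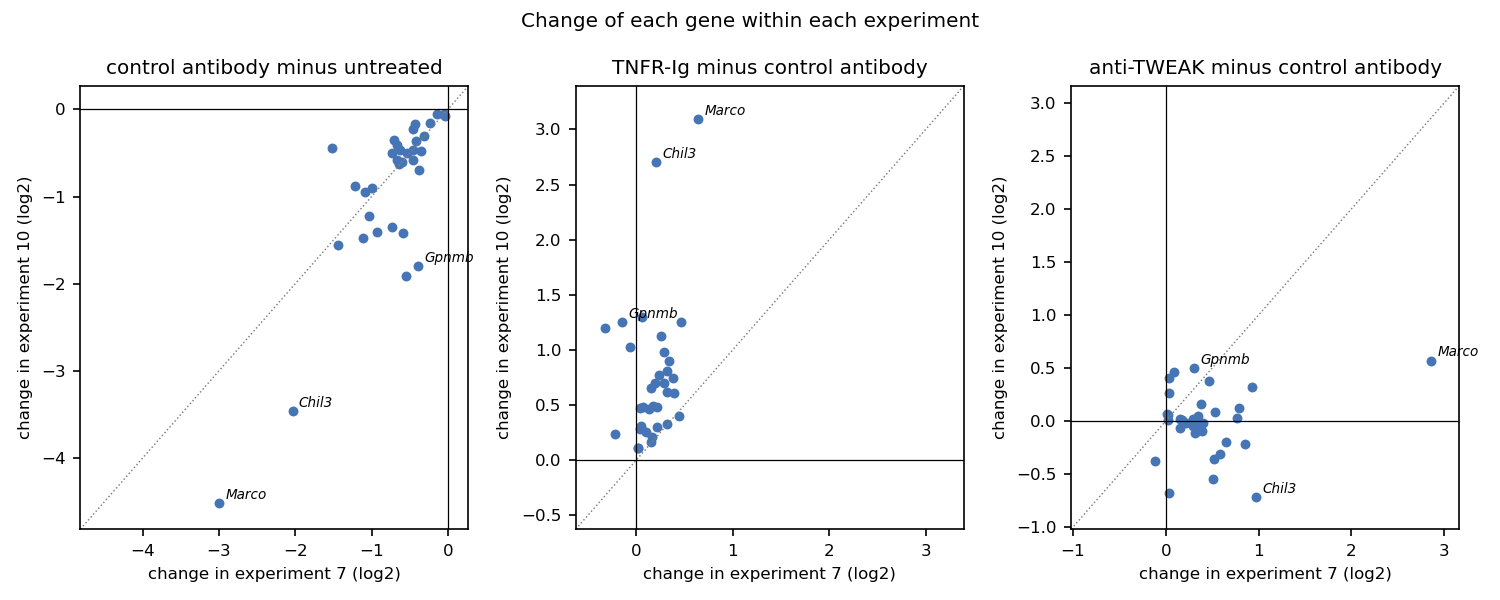
Log2 change of each of the 34 genes within experiment 7 (horizontal) and within experiment 10 (vertical) for 3 comparisons, with a dotted line of equal change. Under the control antibody all points lie below 0 in both experiments, under TNFR-Ig the medians were 0.18 and 0.61, and under anti-TWEAK they were 0.36 and 0.01.

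Anti-TWEAK mice did not differ by the test from control antibody mice in any of the 34 genes. By limma 0 passed, with 2.80% of all tested genes called and a median change of 0.18. At an unadjusted p under 0.05 there were 7 of the 34 (20.6%), near the 16.7% of all tested genes. Marco had the largest difference at 1.89 ± 0.79 (adjusted p = 0.187). It was at 2.11, 4.40 and 9.82 in anti-TWEAK mice, against 2.08, 2.20 and 7.27 in control antibody mice, and 6 of 14 anti-TWEAK arrays were at the floor. The values of that group therefore spread over the whole range. Folr2 at 0.65 ± 0.26 and Spi1 at 0.50 ± 0.18 were the next in size. Leaving out anti-TWEAK replicate 7 of experiment 7 gave 1 called gene. Neutrophil markers had 0 of 9 called and a median of -0.18, with a mean between 4.95 and 10.80 in anti-TWEAK mice and between 6.14 and 11.05 in control antibody mice.

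For anti-TWEAK over the control antibody the median change was 0.36 in experiment 7, with 33 of 34 changes above 0 and 0 called, and 0.01 in experiment 10, with 18 above 0 and only Mertk called (0.41, adjusted p = 0.0229), against 9.25% of all tested genes called higher. For the difference between experiments 0 of 34 genes passed by limma, with 1.72% of all tested genes called, and 20.6% of the 34 had an unadjusted p under 0.05, near the 19.9% of all tested genes. Against untreated mice, a comparison added after the data were seen, 9 genes fell and 0 rose under anti-TWEAK, against 2.28% of all tested genes called lower and 3.82% called higher, with Itgam at -1.05 ± 0.32, Cd68 at -0.99 ± 0.30 and Msr1 at -0.98 ± 0.29. In experiment 7 alone 0 of 34 passed in that comparison (median -0.28), as for all tested genes (0.0% called lower), and in experiment 10 alone 23 fell (median -0.63), against 7.88%. Neutrophil markers had 0 of 9 called in it and a median of -1.89. Anti-TWEAK mice received an antibody and untreated mice none, so blocking TWEAK and receiving an antibody cannot be told apart in that comparison.

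Against the control antibody, a smaller share of these genes than of all tested genes passed under the combination. Of the 34 genes 3 rose and 3 fell, against 14.2% and 17.0% of all tested genes. The median change was 0.00, with 17 changes above 0 and 17 below. Those that fell were Chil3, Pilra and Cebpb, and those that rose were Folr2, Mertk and Ctss. At an unadjusted p under 0.05 there were 8 of the 34 (23.5%), against 42% of all tested genes. The control antibody mice are again the same.

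Chil3 was at 2.45, 6.57 and 11.71 in combination mice, against 6.62, 9.08 and 12.27 in control antibody mice. The combination mice ran from naive levels to those of untreated colitis, and 8 of 15 lay below the lowest control antibody mouse. The change was -2.56 ± 0.81 (adjusted p = 0.0133). Pilra was at 3.65, 6.43 and 8.68 in combination mice, against 6.69, 7.99 and 9.96 in control antibody mice, and changed by -1.68 ± 0.45. Cebpb was at 7.30, 8.58 and 9.50 in combination mice, against 9.0, 9.52 and 10.05 in control antibody mice, and changed by -1.01 ± 0.20 (adjusted p = 1.73e-04).

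Mertk was at 9.90, 10.32 and 10.89 in combination mice, against 9.65, 9.97 and 10.39 in control antibody mice. It rose by 0.41 ± 0.09 (adjusted p = 3.97e-04), and 6 of 15 combination mice lay above the highest control antibody mouse. Folr2 was at 5.89, 7.59 and 8.42 in combination mice, against 5.29, 7.36 and 7.64 in control antibody mice, and rose by 0.64 ± 0.25 (adjusted p = 0.0452). Ctss rose by 0.08 ± 0.02. The other genes included Adgre1 at 0.04 ± 0.19, Marco at -0.14 ± 0.77, Csf1r at 0.16 ± 0.11 and Cd68 at -0.45 ± 0.24, none of which passed.

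Beside these genes, 6 of 9 neutrophil markers fell, with a median change of -1.87 and a mean between 3.81 and 9.33 in combination mice and between 6.14 and 11.05 in control antibody mice. Of 6 T cell markers 4 rose, and of 6 B and plasma cell markers 5 rose, with a median of 0.69. Their part in the changes of the macrophage genes was not tested. Of the 30 further macrophage genes 9 fell and 0 rose, led by Ccl7 (-1.70 ± 0.51), Ccl2 (-1.63 ± 0.48), Emilin2 (-1.20 ± 0.42), the chemokine receptor gene Ccr1 (-1.13 ± 0.30), Ccl12 (-0.94 ± 0.28) and Csf2rb (-0.90 ± 0.27). Within the experiments 3 of the 34 genes were called in experiment 7 and 4 in experiment 10, with medians of 0.02 and -0.07. Mertk was the only gene to rise in each, by 0.45 ± 0.11 and 0.35 ± 0.12. There 2.98% and 9.98% of all tested genes were called higher and 5.47% and 7.57% lower. The rises of Folr2 and Ctss were called in neither experiment alone. Without the filter on dim genes, or without the experiment term, 2 of these genes rose. The difference between experiments passed for 0 of 34 genes by limma, with 0.0319% of all tested genes called, and 0 of the 34 had an unadjusted p under 0.05, against 9.57% of all tested genes.

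The combination was also set against each agent alone. Against TNFR-Ig 14 of the 34 genes fell and 0 rose, against 4.50% of all tested genes called lower and 2.21% called higher, and the median change was -0.33. Combination mice received an antibody, mP2D10, and TNFR-Ig mice none, so blocking TWEAK and receiving an antibody cannot be told apart here. Chil3 changed by -4.02 ± 0.86, Pilra by -2.10 ± 0.48, Cebpb by -1.19 ± 0.21, Itgb2 by -1.09 ± 0.30, Msr1 by -1.06 ± 0.25 and Cd163 by -0.98 ± 0.27. Cd163 was at 9.53, 10.27 and 11.69 in combination mice, against 10.38, 11.41 and 12.36 in TNFR-Ig mice, and 10 of 15 combination mice lay below the lowest TNFR-Ig mouse. Of the 6 tested resident genes 0 passed, at changes between -0.38 and 0.07. Of the 30 further genes 13 fell, among them Ccl7 (-2.11 ± 0.54), Ccl2 (-2.06 ± 0.51), Emilin2 (-1.94 ± 0.44), Hmox1 (-1.59 ± 0.31), Ccr1 (-1.28 ± 0.32) and Csf2rb (-1.25 ± 0.29). Beside them 7 of 9 neutrophil markers fell, with a median of -2.71, and their part was not tested.

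Each of the 14 genes called against TNFR-Ig was also called in experiment 10 alone, where 22 genes fell with a median of -0.61, against 3.81% of all tested genes, while 0 passed in experiment 7 with a median of -0.19 and 0.0638% of all tested genes called lower. Without the 2 combination arrays of experiment 7 that were run with experiment 10, 11 genes fell and 1, Cx3cr1, rose (0.39, adjusted p = 0.046). TNFR-Ig replicate 8 of experiment 10 and combination replicate 6 of experiment 7 each left 9 genes called when left out. Against anti-TWEAK 0 of 34 genes passed by limma, as for all 12534 genes, of which 0.0% were called. At an unadjusted p under 0.05 there were 13 of the 34 (38.2%), against 18% of all tested genes. The median change was -0.16, with Chil3 at -2.81 ± 0.83 (adjusted p = 0.126) and Pilra at -1.48 ± 0.46 (adjusted p = 0.135). Leaving out anti-TWEAK replicate 7 of experiment 7 gave 3 called genes.

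Combination mice still differed from naive mice. Of the 34 genes 19 rose and 2 fell, against 13.3% and 12.0% of all tested genes, with a median change of 0.62. For Aif1, Itgb2, Laptm5, Lyz2, Mpeg1 and Msr1 each of the 15 combination mice lay above each of the 8 naive mice, a separation seen for 2.13% of all tested genes. Msr1 was at 6.87, 7.53 and 8.91 in combination mice, against 5.19, 5.86 and 6.20 in naive mice, and rose by 1.94 ± 0.30. Aif1 was at 7.15, 7.95 and 8.66 in combination mice, against 6.42, 6.77 and 7.03 in naive mice, and rose by 1.39 ± 0.15 (adjusted p = 3.66e-11). Chil3 rose by 3.71 ± 1.02 and Pilra by 2.73 ± 0.56.

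The fractalkine receptor gene Cx3cr1 rose by 0.80 ± 0.15 in combination mice over naive mice. Mertk at -0.48 ± 0.11 and Ctss at -0.13 ± 0.03 were lower than in naive mice. Among the genes that did not pass were Itgam, Marco, Spi1, Cd163, Mrc1 and Gpnmb, at changes between 0.05 and 0.60. Of the 30 further genes 19 rose and 1 fell, with Fcgr1 at 2.67 ± 0.31, the monocyte chemokine receptor gene Ccr2 at 2.42 ± 0.27, Hmox1 at 2.27 ± 0.36, Ccl8 at 2.12 ± 0.33, Ccl2 at 1.94 ± 0.60 and Csf2rb at 1.86 ± 0.34. Of the 9 neutrophil markers 5 rose, with a median of 2.40, and 6 of 12 endothelial markers rose. The untreated mice give the other end: the combination against untreated TNBS, added after the data were seen, had 28 genes lower and 1 higher, against 10.6% and 13.9% of all tested genes, with Mertk the gene that rose (0.36 ± 0.10). In that comparison the rise of Mertk was called in neither experiment alone. In experiment 7 alone 7 genes fell and in experiment 10 alone 24, against 4.17% and 6.90% of all tested genes. Beside them 8 of 9 neutrophil markers fell, with a median of -3.42, and 7 of 12 endothelial markers fell. Combination mice received an antibody and untreated mice none, so the agents' targets and receiving an antibody cannot be told apart in that comparison.

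Among colitic mice the genes did not vary alike. Within groups and experiments, the level of each gene was set against the mean of the 9 neutrophil markers over 64 mice, a family of 34 relations tested with 100000 permutations each. In 29 of 34 genes both Pearson's r and Spearman's rho had an adjusted p under 0.05, positive in 27 and negative in 2. Pilra had r = 0.94 and rho = 0.949, Itgb2 r = 0.931 and rho = 0.947, Chil3 r = 0.924 and rho = 0.913 and Msr1 r = 0.912 and rho = 0.889, each with p = 1.0e-05, the smallest that these permutations can give, and adjusted p = 1.8e-05. These markers are read from the same arrays and tissue pieces as the genes. The relation was not computed for the other tested genes. The counts here and below therefore have no share of all genes beside them and do not show a trait of macrophage genes.

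The lineage genes had r between 0.349 (Aif1) and 0.85 (Cebpb), and Csf1r had r = 0.645. Of the resident genes, Lyve1 had r = 0.581, Ms4a7 r = 0.493 and Axl r = 0.45, Folr2 at r = 0.086 (rho = 0.115, adjusted p = 0.549) and Cd209f at r = 0.247 did not pass, and Mertk was at r = -0.416 (rho = -0.352, adjusted p = 0.00179 for r). Cx3cr1 was the other negative gene, at r = -0.302 (rho = -0.293). Without the 2 mice farthest from the median of the marker mean 28 genes passed, with Pilra at r = 0.933 and Mertk at r = -0.318. Within experiment 7 (34 mice) 23 passed and within experiment 10 (30 mice) 27 passed, all of them positive, and Mertk at r = -0.47 and r = -0.348 did not pass by both measures within either.

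**Figure D5:**
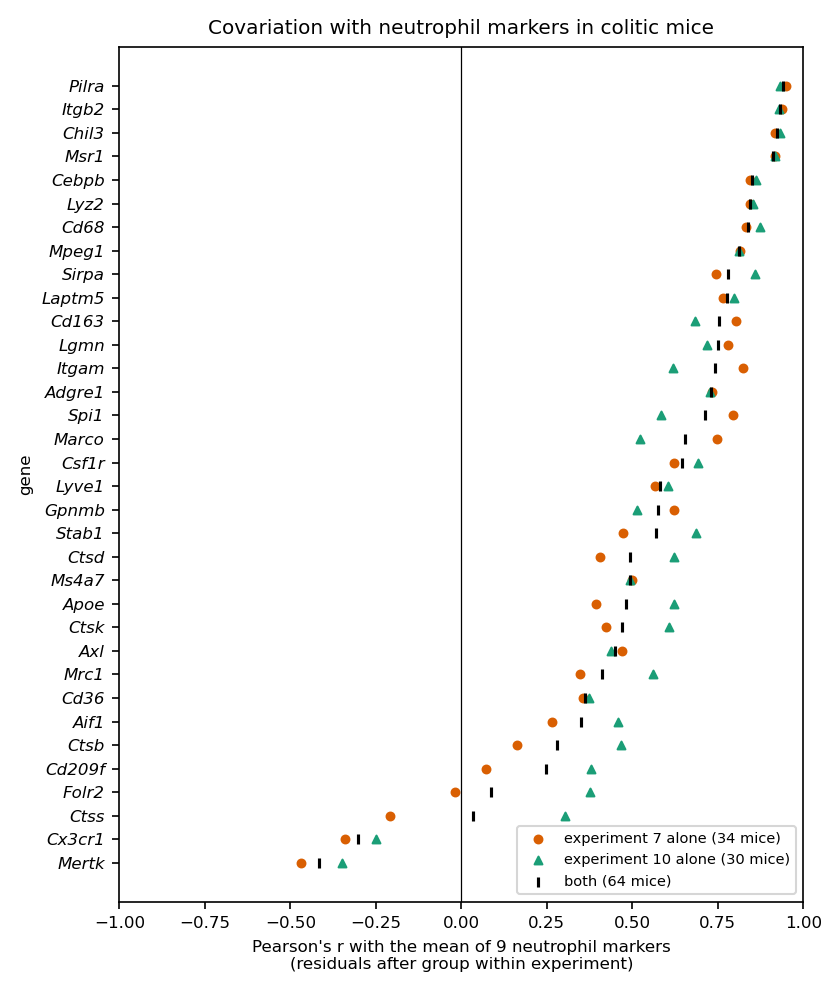
Pearson's r of each tested gene with the mean of 9 neutrophil markers in colitic mice, on residuals after group within experiment, for experiment 7, experiment 10 and both. Pilra, Itgb2, Chil3 and Msr1 lie above 0.9 in both experiments together, and Cx3cr1 and Mertk lie below 0.

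Averaged over the 34 tested genes, untreated mice stood highest and naive mice lowest. The mean was 8.73 ± 0.38 in combination, 9.12 ± 0.56 in anti-TWEAK, 9.34 ± 0.43 in TNFR-Ig, 8.87 ± 0.30 in control antibody, 9.70 ± 0.48 in untreated TNBS and 8.02 ± 0.13 in naive mice (SD), given as a description without a test. The ranges of the 5 colitic groups overlapped, and ordered by their means, each lay within 1 SD of the next. Naive mice ran from 7.87 to 8.23, and the lowest combination mouse was at 8.23 while every mouse of the other colitic groups was higher.

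Genes with several probe sets gave the same direction in most cases. For Csf1r the difference between untreated and naive means was 0.95, 1.03 and 1.82 on its 3 probe sets, and for Ctsb it ran from 0.15 to 0.48, larger on dimmer probe sets. For the combination against the control antibody the 3 probe sets of Csf1r gave 0.16, 0.16 and -0.08. For Msr1 the difference between combination and naive means was 1.97 on the chosen probe set. It was 0.35 on a dimmer one with a mean level of 3.33. The probe set shared by Lilrb4a and Lilr4b averaged 10.77 ± 1.23 in combination, 11.79 ± 1.19 in anti-TWEAK, 12.32 ± 0.62 in TNFR-Ig and 11.88 ± 0.95 in control antibody mice, and that of Ly6c1 and Ly6c2 averaged 11.26 ± 0.37, 11.60 ± 0.42, 11.66 ± 0.40 and 11.50 ± 0.33 in these groups (SD). Trem2 was at the floor on 71 arrays and Cd5l on 72, so no level of either was measured.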

How the data were processed

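RNA of 72 colon samples was hybridised to Affymetrix 3 prime expression arrays, 1 array per mouse. The deposited table holds log2 values that the authors had normalised. The submitters' processing notes name RMA and GCRMA beside R 2.11.1 and limma 3.4.5, without saying which step gave these values. All 72 columns were used.

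Of 45101 probe sets, 34945 carried 1 symbol in the platform annotation. Each gene was its brightest such probe set, and genes under the 40th percentile of probe set means (2.42) were left out. A linear model with 6 groups and the experiment was fitted to all 12534 genes in limma 3.58.1 (R 4.3.3), with two-sided Benjamini-Hochberg adjusted p-values, and checked on simulated data. The limma p-values weigh a group difference against the residual spread between mice, pooled over all groups and both experiments. The number of arrays limits the precision.

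The 39 members and the lists of other genes were chosen with earlier results of these data known. Each member is accounted for, and further macrophage genes are named by the 6 largest called changes per comparison. The genes plotted by mouse and other single genes were chosen after their values were seen. Covariation was tested on residuals after group within experiment by permutation. Alternatives were the filter, the probe set rule, the experiment term, each experiment alone, quantile normalization, array weights, the compared groups alone, robust moderation, a replicate block and leaving out arrays. Same-numbered mice were checked for shared deviations (132 pairs, median r = -0.005). Promoters came from RefSeq, and figures from matplotlib 3.10.9.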

Additional observations from a re-analysis of the deposited data

Results flagged for a closer look

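In groups of 8 mice, 5 single values lay further from the rest of their group than Dixon's critical value for an outlier allows, among 68 combinations of gene and group tested; chance gives about 5% of such combinations. Untreated TNBS replicate 5 of experiment 7 was low for 3 genes: Cd68 at 8.02, where the next mouse was at 9.34, Msr1 at 7.92, where the next was at 9.08, and Lyz2 at 13.29, where the next was at 13.88. Naive replicate 2 was low for Gpnmb at 3.12, where the next was at 5.05. Naive replicate 7 was low for Spi1 at 2.56, where the next was at 3.48.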

How the results depend on the processing

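No change of a member that was called in the main setting or under an alternative turned its direction, while some changes that were called in neither did. Of 3298 values of single members under the alternatives 119 lost and 60 gained a call. In experiment 7 alone the counts of called members were 0 for the control antibody, 0 for TNFR-Ig over the control antibody, 3 for the combination over the control antibody and 0 for the combination over TNFR-Ig. In experiment 10 alone they were 22 for TNFR-Ig over the control antibody, 1 for anti-TWEAK over the control antibody and 22 for the combination over TNFR-Ig. Fewer mice enter each of these fits. Array weights gave 14 members for TNFR-Ig over the control antibody and quantile normalization gave 1 for TNFR-Ig over untreated; the cause was not tested. Leaving out 1 array at a time, the counts ran from 31 to 32 for colitis, 17 to 29 for the control antibody, 1 to 12 for TNFR-Ig over the control antibody, 0 to 3 for TNFR-Ig over untreated, 0 to 1 for anti-TWEAK, 5 to 7 for the combination over the control antibody, 9 to 18 for the combination over TNFR-Ig, 0 to 3 for the combination over anti-TWEAK and 20 to 21 for the combination over naive. With the replicate block, whose numbers did not pair the mice, the control antibody had 21 members called, TNFR-Ig over the control antibody 4 and the combination over TNFR-Ig 10. Members at the floor of the table, above all Marco, have changes that the floor limits.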
